A study of Rattus norvegicus with 15 samples.

Results

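The 30 genes examined here encode the enzymes of cholesterol and fatty acid synthesis, the SREBP transcription factors that drive them, and partners of that control system. They were chosen by symbol. Of the 30 symbols, 29 matched a gene name in the deposited count table and Scd matched through the older name Scd1. Elovl6, which encodes an elongase of saturated fatty acids, has 2 loci in the table, so the genes fill 31 of its 33717 loci. Both Elovl6 loci were close to empty, with 2 and 25 counts over all 15 libraries, and were not tested. The other 29 genes were among the 14147 loci with enough counts to test. The RNA came from rat primary chondrocytes, cartilage cells taken here from the jaw (temporomandibular) joint, and was measured by RNA-seq.

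The 15 libraries form 5 groups of 3. The first received an siRNA against Ddx5 together with mechanical stress, the next mechanical stress without siRNA, the third the Ddx5 siRNA without stress, and the fourth a control siRNA. The fifth group is labelled only as a control and is treated here as free of siRNA, since a control siRNA group stands beside it. An siRNA is a short RNA that triggers degradation of a matching transcript, and Ddx5 encodes a DEAD-box RNA helicase. No group had the control siRNA and stress together, so the Ddx5 siRNA under stress was set against stress without any siRNA. The rats' strain and age, the way the stress was applied and its duration are not stated in the labels. Whether replicate libraries are from different animals or cultures is not stated either, so p-values reflect the variation among these libraries alone, and that variation may be technical.

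Cholesterol is built from acetyl-CoA through mevalonate, isoprenoid units, squalene and lanosterol, and fatty acids are built from the same acetyl-CoA by a separate set of enzymes. Most of these genes are targets of SREBP-2 or SREBP-1, membrane-bound factors that are carried out of the endoplasmic reticulum and cut free when sterols are scarce, and that Insig proteins hold back when sterols are plentiful. The genes therefore often move together in cultured cells. SREBPs are weak activators by themselves and commonly act beside NF-Y, which binds CCAAT boxes, and Sp1, which binds GC boxes.

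Promoter sequence was available for 23 of the 30 symbols, as 250 bases before and 50 after each gene start in RefSeq (rat build GRCr8). Pmvk, Fdft1, Sqle, Stard4, Acaca, Fasn and Elovl6 had no entry in that table. Srebf1 had 2 entries, of which only the first was used, so its window describes 1 of 2 listed starts. The shares over all promoters count every entry rather than 1 per gene. The letters CCAAT, on either strand, stood in 18 of the 23 promoters (78.3%), against 37.5% of all 33469 promoters of the same length and 37.1% of the 10413 that belong to tested genes. The letters GGGCGG, a GC box, on either strand, stood in 20 of 23 (87%), against 33.1% of all promoters and 61.5% of those of tested genes. The E-box letters CACGTG stood in 2 of 23 (8.7%), Sc5d and Insig1, against 6.42% of all promoters and 9.03% of those of tested genes. The sterol regulatory element was searched as TCACNCCAC on both strands; these letters stood in none of the 23 windows and in 1.12% of all promoters, which says only that these exact letters are not within these windows. No 2 matches of different motifs shared a base. The letters are a description of the windows and were not tested as binding sites.

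The promoters of 6 genes on which the results below turn are shown 5′ to 3′ on the strand of the gene, in GRCr8, with capitals on CCAAT or its complement ATTGG. They run from 250 bases before the start to 50 after it. The windows are chr2:53382054-53382353 (plus strand) for Hmgcs1, chr17:66547475-66547774 (minus) for Idi1, chr2:176804767-176805066 (minus) for Fdps, chr4:8057720-8058019 (minus) for Insig1, chr10:45529115-45529414 (minus) for Srebf1 and chr1:253231682-253231981 (minus) for Scd.
Hmgcs1: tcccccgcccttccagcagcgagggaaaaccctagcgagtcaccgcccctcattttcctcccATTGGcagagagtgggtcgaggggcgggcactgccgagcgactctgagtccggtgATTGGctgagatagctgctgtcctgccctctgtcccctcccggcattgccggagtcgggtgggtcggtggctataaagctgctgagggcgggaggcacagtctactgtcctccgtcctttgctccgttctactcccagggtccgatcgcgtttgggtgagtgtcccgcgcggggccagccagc
Idi1: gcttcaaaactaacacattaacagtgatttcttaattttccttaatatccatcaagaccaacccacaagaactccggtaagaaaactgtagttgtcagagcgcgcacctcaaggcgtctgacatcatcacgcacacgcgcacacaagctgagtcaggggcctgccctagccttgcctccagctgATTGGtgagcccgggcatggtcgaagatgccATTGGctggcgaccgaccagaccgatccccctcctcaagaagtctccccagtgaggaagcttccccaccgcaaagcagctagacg
Fdps: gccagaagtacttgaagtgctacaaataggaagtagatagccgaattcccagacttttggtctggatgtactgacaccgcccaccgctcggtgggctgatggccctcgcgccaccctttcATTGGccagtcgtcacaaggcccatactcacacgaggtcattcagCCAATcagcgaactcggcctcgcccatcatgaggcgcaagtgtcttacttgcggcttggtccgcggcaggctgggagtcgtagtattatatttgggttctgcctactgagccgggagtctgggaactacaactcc
Insig1: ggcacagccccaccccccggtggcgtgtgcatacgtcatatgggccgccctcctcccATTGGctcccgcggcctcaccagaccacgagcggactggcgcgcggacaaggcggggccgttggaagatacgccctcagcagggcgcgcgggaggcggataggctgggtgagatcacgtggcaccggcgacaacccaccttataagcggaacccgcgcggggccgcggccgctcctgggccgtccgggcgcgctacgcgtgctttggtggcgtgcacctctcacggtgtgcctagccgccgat
Srebf1: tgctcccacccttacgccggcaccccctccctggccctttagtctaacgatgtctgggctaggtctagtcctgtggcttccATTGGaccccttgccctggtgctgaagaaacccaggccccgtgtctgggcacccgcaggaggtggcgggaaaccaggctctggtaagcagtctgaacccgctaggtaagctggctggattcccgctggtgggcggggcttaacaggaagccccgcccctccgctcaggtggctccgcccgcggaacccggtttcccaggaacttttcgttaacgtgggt
Scd: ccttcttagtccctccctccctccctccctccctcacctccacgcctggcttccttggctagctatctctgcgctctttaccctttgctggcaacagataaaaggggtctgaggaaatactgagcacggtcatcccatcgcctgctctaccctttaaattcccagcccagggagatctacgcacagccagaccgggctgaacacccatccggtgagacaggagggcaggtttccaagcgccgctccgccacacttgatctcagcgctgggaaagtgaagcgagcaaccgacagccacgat
Hmgcs1, Idi1 and Fdps each hold 2 CCAAT matches, Insig1 and Srebf1 hold 1, and Scd holds none, nor a GC box. Mvk and Nsdhl held the most, with 5 CCAAT matches each.

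**Figure D1:**
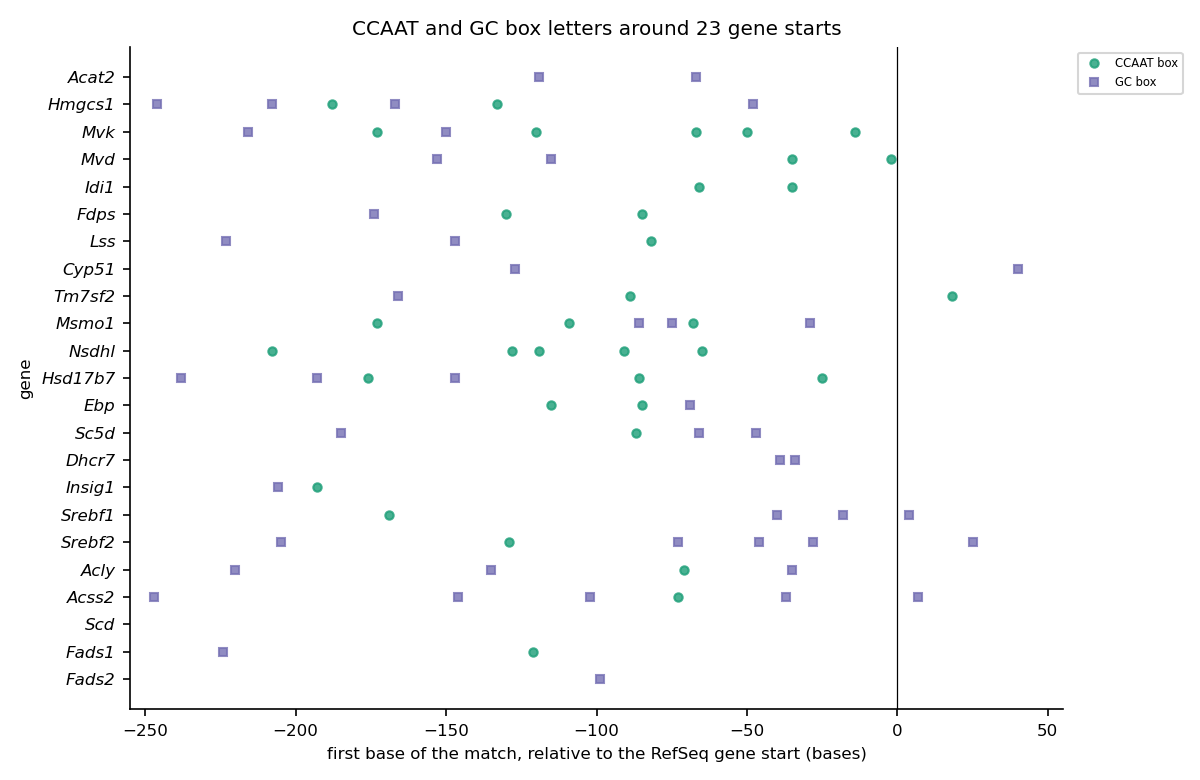
Positions of the letters CCAAT (circles) and GGGCGG (squares), on either strand, in the 23 promoters with sequence, ordered by role; the horizontal axis is the distance in bases from the RefSeq gene start (vertical line) to the first base of the match. CCAAT letters stand in 18 of the 23 promoters and GC box letters in 20, and Scd has neither.

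Levels of different genes were compared in the deposited FPKM, which divides counts by gene length. The most abundant of the 29 genes by the median over 15 libraries was Msmo1, which encodes the methyl oxidase that starts removal of the sterol 4-methyl groups, at 78.0 FPKM (46.8 to 127). Fdps, which makes farnesyl pyrophosphate, stood at 63.3 FPKM (42.5 to 104.5), Cyp51, the lanosterol demethylase gene, at 45.6 FPKM (28.15 to 75.3) and the squalene epoxidase gene Sqle at 40.1 FPKM (26.2 to 56.3). Lowest were Stard4, which encodes a sterol carrier, at 2.76 FPKM, the sterol reductase gene Hsd17b7 at 2.25 FPKM, and the stearoyl-CoA desaturase gene Scd at 2.10 FPKM. Neighbours in this order had overlapping ranges over the 15 libraries, including the 4 most abundant genes among themselves.

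On the scale used for all comparisons between libraries, counts scaled to TMM-adjusted library size (CPM), the highest library exceeded the lowest 8.94-fold for Scd, 6.96-fold for Acss2, the cytosolic acetyl-CoA synthetase gene, and 6.87-fold for Insig1, whose protein retains SREBPs in the endoplasmic reticulum. The flattest gene was Srebf2, which encodes SREBP-2, the main driver of the sterol genes, at 1.28-fold. Its lowest library was control replicate 1 (115 CPM) and its highest control replicate 3 (147 CPM). Ebp and Acly, which encode a sterol isomerase and ATP citrate lyase, were nearly as flat, at 1.63-fold and 1.67-fold.

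Total counts ran from 14309005 to 16219775 per library, and the targeted gene checked the labels: Ddx5 averaged 200 ± 38.6 CPM with the Ddx5 siRNA plus stress and 398 ± 32.8 CPM with stress, 226 ± 23 CPM with the Ddx5 siRNA, 385 ± 21.8 CPM with the control siRNA and 514 ± 30.3 CPM in the control (SD, n = 3 each). Ddx5 was thus lower in the control siRNA libraries (360 to 398 CPM) than in the control libraries (485 to 545 CPM) without overlap, by −0.42 (SE 0.13), which did not pass (edgeR adjusted p = 0.079). Of the chondrocyte markers, Acan was the most abundant, at 112 to 294 CPM in group means, while the cartilage collagen gene Col2a1 was at 0.754 to 3.04 CPM and Matn1, Cnmd (listed under its older name Lect1) and Col9a1 were near 0. Marker sums are given per library total, without TMM scaling. The chondrocyte sums are mostly Acan, so a sum can move against the other chondrocyte markers. Markers of adipocytes, which make fatty acids, summed to 0.436 to 3.76 CPM per library over 7 genes. Those of endothelial cells reached at most 0.370 CPM over 4 genes, with Cdh5 at 0 everywhere, and the leukocyte gene Tyrobp was at 0. The 8 macrophage and leukocyte markers summed to 17.9 to 43.5 CPM per library, almost all of it Cd14, the 5 skeletal muscle markers to 14.1 to 40.2 CPM, and the 5 Schwann cell and neuron markers to 29.3 to 66.9 CPM. In bulk RNA, fewer cells of a type and less RNA per cell cannot be told apart.

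Before any comparison, the libraries themselves have to be described, because 2 of them stand apart in these genes. Replicate 1 of the Ddx5 siRNA plus stress group was the highest of its 3 libraries in 29 of 29 genes, and replicate 1 of the Ddx5 siRNA group in 28 of 29, where Stard4 was the exception. Over all genes tested these libraries were highest of their group in 41.5% and 40.7%. Set against the mean of the other 2 libraries of its group, replicate 1 was higher by a median of 1.89-fold with the Ddx5 siRNA plus stress, ranging from 1.06-fold for Srebf2 to 5.65-fold for Scd, and by a median of 1.74-fold with the Ddx5 siRNA, ranging from 1.02-fold for Stard4 to 6.09-fold for Scd. The ratio exceeded 2-fold for 14 genes in the Ddx5 siRNA plus stress group and 12 genes in the Ddx5 siRNA group. Of all 15 libraries, Ddx5 siRNA plus stress replicate 1 was the highest for 14 genes and Ddx5 siRNA replicate 1 for 12.

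Scd shows the pattern at its widest. It stood at 53.05, 9.54 and 9.23 CPM in the Ddx5 siRNA plus stress libraries and at 11.4, 6.66 and 7.56 CPM in the stress libraries. The Ddx5 siRNA libraries held 38.3, 6.64 and 5.94 CPM, the control siRNA libraries 24.8, 22.0 and 28.15 CPM, and the control libraries 11.8, 8.25 and 6.23 CPM. Both replicate 1 libraries with the Ddx5 siRNA lay above every other library, the 3 control siRNA libraries next, and the remaining 10 at or below 11.8 CPM. Insig1 had 351, 100.4 and 67.8 CPM with the Ddx5 siRNA plus stress and 93.0, 51.1 and 62.2 CPM with stress, so that its highest library was again the same replicate 1.

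The pattern reached every role. Acss2 had 39.6, 11.5 and 8.85 CPM with the Ddx5 siRNA plus stress and 31.9, 9.50 and 5.69 CPM with the Ddx5 siRNA. Dhcr7, which encodes the reductase of the last step to cholesterol, had 67.3, 22.8 and 20.9 CPM with the Ddx5 siRNA plus stress and 43.6, 18.2 and 20.7 CPM with the Ddx5 siRNA. Replicate 1 lay far above the others in both genes and both groups. Lss, the lanosterol synthase gene, had 90.3, 40.3 and 33.1 CPM with the Ddx5 siRNA plus stress and 86.95, 33.0 and 35.3 CPM with the Ddx5 siRNA, and Fads2, a desaturase gene that works with Fads1, had 59.9, 22.5 and 18.5 CPM and 69.8, 25.6 and 25.0 CPM in the same groups. At the other end, Srebf2 had 142, 135 and 133 CPM with the Ddx5 siRNA plus stress and 146, 133 and 129.9 CPM with the Ddx5 siRNA, hardly set apart.

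Other genes moved with these 2 libraries. Col1a1, the type I collagen gene, stood at 69447, 42908 and 43455 CPM with the Ddx5 siRNA plus stress and at 68148, 46736 and 45090 CPM with the Ddx5 siRNA, so that replicate 1 was highest in both groups. The 11 chondrocyte markers summed to 170, 296 and 325 CPM with the Ddx5 siRNA plus stress and to 198, 420 and 424 CPM with the Ddx5 siRNA, so that replicate 1 was lowest in both. The 5 skeletal muscle markers summed to 25.3, 15.9 and 16.3 CPM with the Ddx5 siRNA plus stress and to 40.2, 22.6 and 22.7 CPM with the Ddx5 siRNA, and replicate 1 was highest in both. The 8 leukocyte markers summed to 20.2, 28.0 and 28.9 CPM with the Ddx5 siRNA plus stress and to 17.9, 26.2 and 26.9 CPM with the Ddx5 siRNA, with replicate 1 lowest in both. The 5 Schwann cell and neuron markers summed to 50.9, 41.4 and 39.85 CPM and to 55.2, 48.8 and 42.6 CPM in the same groups, with replicate 1 highest. The 7 adipocyte markers summed to 3.76, 1.05 and 1.59 CPM and to 0.829, 0.617 and 0.879 CPM, with replicate 1 highest in the Ddx5 siRNA plus stress group and within the range of the others in the Ddx5 siRNA group. Ddx5 was lowest of all 15 libraries in replicate 1 of the Ddx5 siRNA plus stress group and within the range of its group in that of the Ddx5 siRNA group, at 164, 241 and 194 CPM with the Ddx5 siRNA plus stress and 221, 252 and 207 CPM with the Ddx5 siRNA. The part these differences play in the sterol and fatty acid genes was not tested. No label marks either library as different, so each comparison below is given with all 15 libraries and again without both, a choice made after the values were seen.

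**Figure D2:**
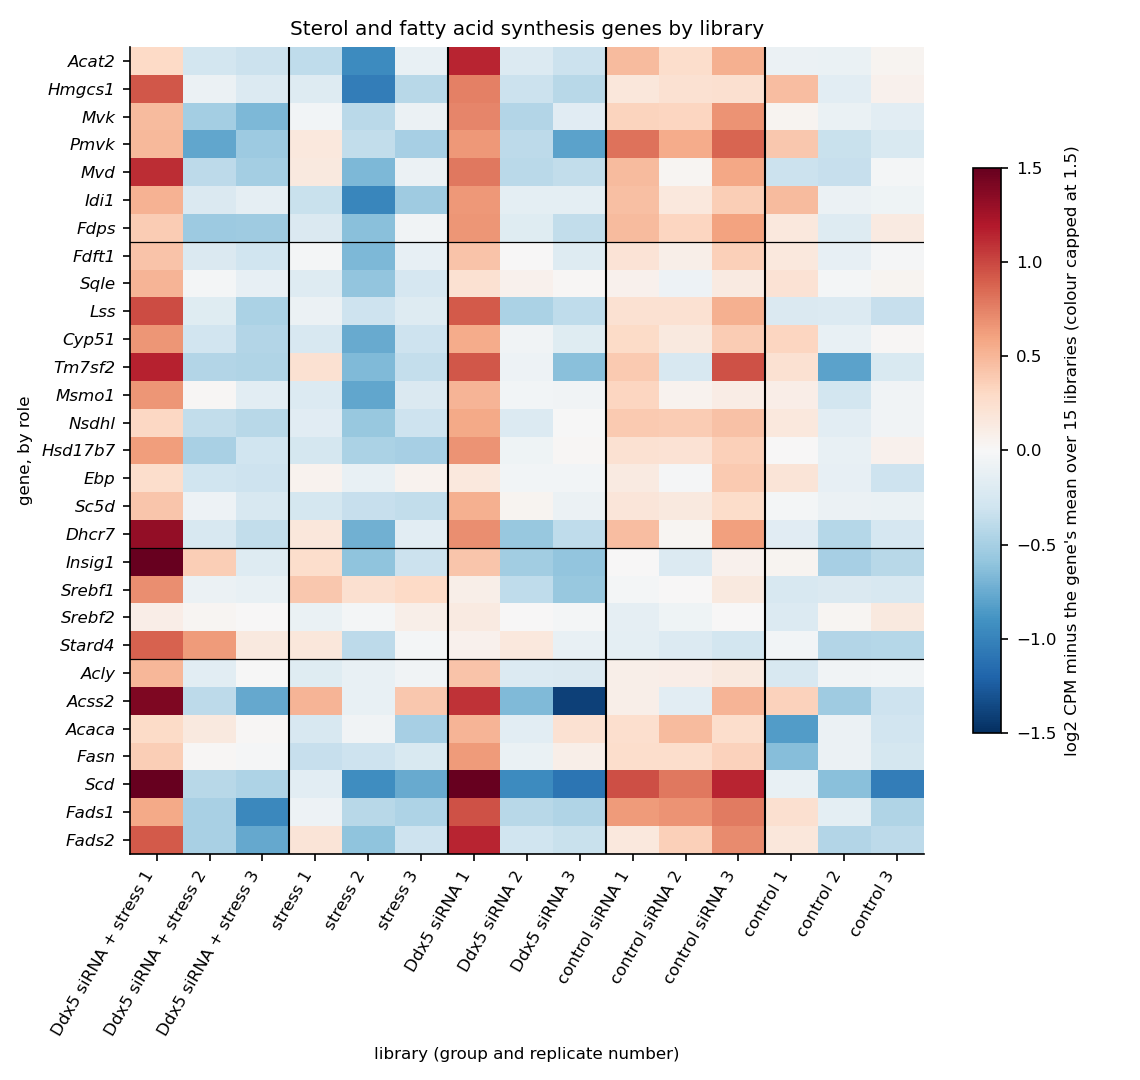
Heat map of 29 genes (rows, grouped by role: isoprenoid steps, squalene and sterol steps, regulation and sterol transfer, fatty acid steps) in 15 libraries (columns, by group and replicate), coloured by log2 CPM minus the gene's mean over all libraries, capped at 1.5 in either direction. Replicate 1 of both groups with the Ddx5 siRNA is above the gene's mean in 29 of 29 genes, and stress replicate 2 is the lowest library for 12.

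The other groups were tighter but not even. The range between the highest and lowest library, on the log2 scale, had a median over the 29 genes of 0.915 with the Ddx5 siRNA plus stress, 0.509 with stress, 0.776 with the Ddx5 siRNA, 0.261 with the control siRNA and 0.351 in the control. Over all genes tested the medians were 0.398, 0.330, 0.347, 0.246 and 0.346 in the same order of groups. Within the stress group replicate 1 was highest in 23 genes and replicate 2 lowest in 21, in the control siRNA group replicate 3 was highest in 25 and replicate 2 lowest in 21, and in the control replicate 1 was highest in 20. Over all genes tested, stress replicate 1 was highest in 35% and stress replicate 2 lowest in 32.3%, control siRNA replicate 3 highest in 34.3% and replicate 2 lowest in 28.7%, and control replicate 1 highest in 37.9%.

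To ask whether mechanical stress changed these genes, the stress libraries were compared with the control. None of the 29 genes passed, where 1.41% of all genes tested did (edgeR's quasi-likelihood test, Benjamini-Hochberg adjusted p under 0.05). By the unadjusted p under 0.05, 3 genes passed, against 15.1% of all genes. DESeq2 also called 0 (3.87% of all genes). The median log2 fold change was −0.03, with 10 positive and 19 negative values, against a median of −0.0030 over all genes. The groups did not overlap for 8 genes that were lower under stress (10.4% of all genes) and 1 that was higher (11.3%). The summed chondrocyte markers were 125 to 201 CPM in stress libraries and 179.5 to 285 CPM in control libraries; the groups overlapped. The unscaled skeletal muscle marker sums nearly touched, at 14.1 to 22.75 CPM in stress libraries and 22.80 to 25.1 CPM in control libraries. The highest stress and lowest control library differed by less than their TMM factors (1.02 and 1.04), so no separation is read from this. Of the 4 tested muscle markers, 1 had a positive and 3 a negative log2 fold change. Of single markers, the chondrocyte transcription factor gene Sox9 (−0.92, SE 0.22, edgeR adjusted p = 0.0485) and the muscle myosin gene Myh1 (−0.81, SE 0.16, edgeR adjusted p = 0.0172) fell under stress. Sox9 did not pass whichever 1 of the 6 libraries was dropped (edgeR adjusted p 0.0837 to 0.155), nor did Myh1 when control replicate 1 or stress replicate 2 or 3 was (up to 0.0786). The part of these markers in the sterol and fatty acid values was not tested.

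Of the isoprenoid enzymes, Idi1, the isopentenyl diphosphate isomerase gene, had 21.1, 13.5 and 18.5 CPM in stress libraries, against 37.1, 25.0 and 25.6 CPM in control libraries. The groups did not overlap, and the log2 fold change was −0.72 (SE 0.26, edgeR adjusted p = 0.201). Hmgcs1, the HMG-CoA synthase gene, differed by −0.65 (SE 0.37) and its groups did not overlap either, while Mvk, Pmvk, Mvd and Fdps overlapped. Acat2, whose enzyme makes acetoacetyl-CoA, was also without overlap, with stress lower.

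Among the squalene and sterol enzymes, Sqle stood at 94.9, 72.0 and 91.1 CPM in stress libraries, against 126, 107 and 111 CPM in control libraries. All stress libraries were below all control libraries, and the log2 fold change was −0.42 (SE 0.15, edgeR adjusted p = 0.199). Cyp51 (−0.51, SE 0.28), Nsdhl (−0.33, SE 0.21), Hsd17b7 (−0.39, SE 0.26) and Sc5d (−0.25, SE 0.16) also had every stress library below every control library. Lss, Tm7sf2, Ebp and Dhcr7, which act at the cyclisation of squalene and in later reductions and isomerisation, had fold changes between −0.01 and 0.09.

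Srebf1, which encodes SREBP-1, was the 1 gene whose stress libraries all lay above the control libraries. It had 69.95, 62.4 and 64.9 CPM in stress libraries, against 44.7, 45.3 and 44.6 CPM in control libraries. The groups did not overlap and the log2 fold change was 0.55 (SE 0.19), but the gene did not pass (edgeR adjusted p = 0.191). Srebf2 had a fold change of −0.01 (SE 0.10). Of the genes of fatty acid synthesis, Fasn, the fatty acid synthase gene, differed by 0.01 (SE 0.17), Acly by −0.01 (SE 0.17), Acaca, the acetyl-CoA carboxylase gene, by 0.12 (SE 0.19), Acss2 by 0.41 (SE 0.65) and Fads1 by −0.22 (SE 0.43), while the 95% interval for Scd ran from −1.64 to 1.57.

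The stress result depends on how the spread is estimated. Without both replicate 1 libraries that received the Ddx5 siRNA, which belong to neither group, 4 of the 29 genes passed, with 6.04% of all genes (3.82% higher, 2.22% lower). Idi1 (edgeR adjusted p = 0.0189), Sqle (0.0269) and Cyp51 (0.0369) fell and Srebf1 rose (0.0015). By their correlations the replicate numbers were taken to pair the stress and control libraries, which no label states. With the number as a block in all 15 libraries, Idi1 alone fell (edgeR adjusted p = 0.0121), with 2.59% of all genes called (0.721% lower). When the model held no other groups than stress and control and kept the block, 8 genes passed, with 12.5% of all genes called (7.00% higher, 5.52% lower). Idi1, Hmgcs1, Fdps, Sqle, Cyp51, Msmo1 and Nsdhl fell (edgeR adjusted p 0.000234 to 0.0327) and Srebf1 rose (0.000843). Starting from all 15 libraries, 0 genes passed when each of the 6 stress and control libraries was dropped in turn, and the median log2 fold change lay between −0.28 without stress replicate 1 and 0.01.

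**Figure D3:**
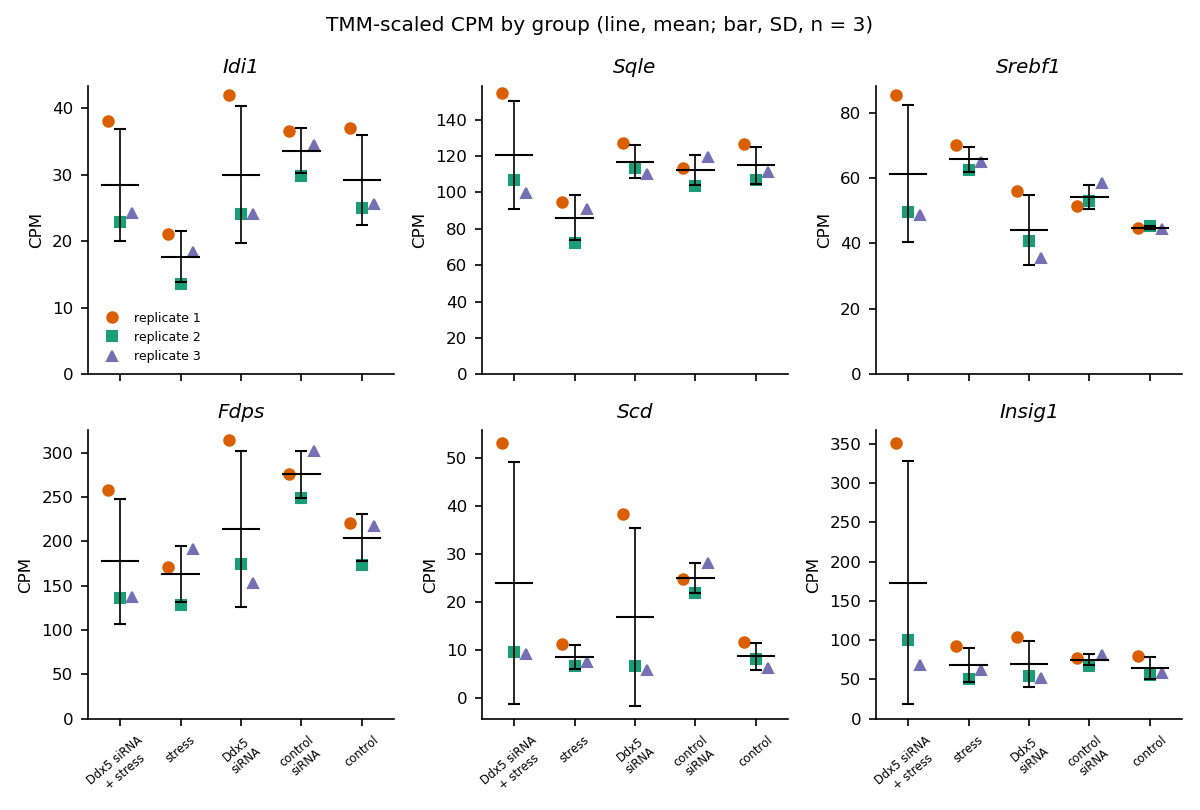
CPM of Idi1, Sqle, Srebf1, Fdps, Scd and Insig1 in each of 5 groups, from Ddx5 siRNA plus stress on the left to the control on the right. Symbols and colours are replicates, the line is the mean and the bar the SD (n = 3). Idi1 and Sqle are lower and Srebf1 higher in all stress libraries than in all control libraries, and replicate 1 lies far above the others for Scd with the Ddx5 siRNA and with the Ddx5 siRNA plus stress.

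In cells without stress, the Ddx5 siRNA was set against the control siRNA. None of the 29 genes passed (0.396% of all genes did), by edgeR or by DESeq2 (2.79% of all genes), and 0 passed at an unadjusted p under 0.05 (15.5% of all genes). The median log2 fold change was −0.12, with 3 positive and 26 negative values, against 0.0072 over all genes. The groups overlapped for every gene except Stard4, whose 3 Ddx5 siRNA libraries were higher (10.7% of all genes), and 0 were lower without overlap (13.2%).

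Pmvk, the phosphomevalonate kinase gene, had 28.0, 13.5 and 10.2 CPM in Ddx5 siRNA libraries, against 31.35, 26.3 and 32.7 CPM in control siRNA libraries. Only replicate 1 overlapped the control siRNA libraries, and the log2 fold change was −0.81 (SE 0.39, edgeR adjusted p = 0.349). Srebf1 had 56.0, 40.6 and 35.4 CPM in Ddx5 siRNA libraries, against 51.5, 52.9 and 58.4 CPM in control siRNA libraries (−0.30, SE 0.19, edgeR adjusted p = 0.481). Fdps had 315, 175 and 153 CPM in Ddx5 siRNA libraries, against 276, 249 and 302 CPM in control siRNA libraries (−0.36, SE 0.29, edgeR adjusted p = 0.583). In all 3 genes replicates 2 and 3 lay below every control siRNA library, and for Fdps replicate 1 lay above them all.

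With both replicate 1 libraries left out, 13 of the 29 genes passed, all lower with the Ddx5 siRNA, in a fit that called 13.4% of all genes (7.02% lower). The median log2 fold change was then −0.51, with 2 positive and 27 negative values. The fall was largest for Scd (−1.99, SE 0.27, edgeR adjusted p = 0.000243), followed by Pmvk (−1.34, SE 0.24), Acss2 (−1.16, SE 0.32) and Fads1, a desaturase gene of polyunsaturated fatty acid synthesis (−1.14, SE 0.19). The others were the isoprenoid genes Acat2, Mvk, Mvd and Fdps, the sterol genes Lss, Nsdhl and Dhcr7, the fatty acid gene Acly, and Srebf1. This fit has 2 Ddx5 siRNA libraries and was chosen after their values were seen. Markers moved with the same libraries. Ddx5 siRNA replicates 2 and 3 lay above the control siRNA libraries in the summed chondrocyte markers (420 and 424 CPM, against 309 to 332 CPM), leukocyte markers (26.2 and 26.9 CPM, against 18.2 to 20.7 CPM) and muscle markers (22.6 and 22.7 CPM, against 16.5 to 21.3 CPM). They lay below them in the summed Schwann cell and neuron markers (48.8 and 42.6 CPM, against 53.6 to 66.9 CPM) and in Col1a1 (46736 and 45090 CPM, against 56630 to 72887 CPM). Over all 15 libraries Myh1 rose with the Ddx5 siRNA (1.14, SE 0.16, edgeR adjusted p = 0.0176), where 0.233% of all genes were called higher, and it did not pass when Ddx5 siRNA replicate 2 or 3 or control siRNA replicate 1 or 3 was dropped (up to 0.112). The part of these markers was not tested. With Ddx5 siRNA replicate 1 alone left out, the median was also −0.51 but 0 genes passed. With all 15 libraries, the Ddx5 siRNA libraries had a median of 0.20 against the control without siRNA, with 0 called genes (0.0212% of all genes). This comparison was not run without replicate 1. Relative to each gene's mean over 15 libraries, the median log2 deviation of the 29 genes was 0.651 in Ddx5 siRNA replicate 1. It was −0.201 and −0.215 in replicates 2 and 3, and 0.248, 0.152 and 0.381 in the control siRNA libraries. In the control libraries it was 0.0430, −0.153 and −0.158. Of the 13 genes, Scd, Pmvk, Fads1, Mvk, Mvd, Fdps, Lss, Nsdhl and Dhcr7 were also called higher with the control siRNA than in the control. That call came from the same fit and the same control siRNA libraries, and Acat2, Acss2, Acly and Srebf1 lacked it. Which of the 2 siRNAs moved these genes was not tested.

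The Ddx5 siRNA under stress was set against stress alone. None of the 29 genes passed (0.0283% of all genes did), by edgeR or by DESeq2 (1.12% of all genes). At an unadjusted p under 0.05, 9 passed, against 11.6% of all genes. The median log2 fold change was 0.41, with 27 positive and 2 negative values, against 0.026 over all genes. For 6 genes, Idi1, Sqle, Msmo1, Sc5d, Acaca and Fasn, every library with the Ddx5 siRNA plus stress was above every stress library (7.57% of all genes), and 0 genes showed the reverse (7.32%).

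Col1a1 stood at 42908 to 69447 CPM in Ddx5 siRNA plus stress libraries and 34954 to 39285 CPM in stress libraries without overlap. The chondrocyte markers summed to 170 to 325 CPM and 125 to 201 CPM in the same groups, mostly Acan. Of the 7 tested chondrocyte markers, 2 had positive and 5 negative log2 fold changes (median −0.364). The part of Col1a1 and these markers was not tested.

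Sqle had 154, 107 and 99.9 CPM in Ddx5 siRNA plus stress libraries, against 94.9, 72.0 and 91.1 CPM in stress libraries (log2 fold change 0.48, SE 0.15, edgeR adjusted p = 0.256). Msmo1 had 237, 151 and 133 CPM in Ddx5 siRNA plus stress libraries, against 129, 87.1 and 128 CPM in stress libraries (0.60, SE 0.22, edgeR adjusted p = 0.341). Neither gene's groups overlapped, although Msmo1 came close, and replicate 1 was well above the rest in both. Stard4 had 14.1, 11.9 and 8.47 CPM in Ddx5 siRNA plus stress libraries, against 8.65, 5.85 and 7.50 CPM in stress libraries (0.65, SE 0.21, edgeR adjusted p = 0.268). Its lowest library with the siRNA lay just under the highest without it. Insig1, whose 3 libraries with the siRNA spanned 67.8 to 351 CPM, had the second largest difference after Scd, at 1.33 (SE 0.54, edgeR adjusted p = 0.383). Scd differed by 1.49 (SE 0.81).

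Without both replicate 1 libraries the median log2 fold change was 0.01, with 15 positive and 14 negative values and 0 genes called (1.12% of all genes). The positive median over all 15 libraries thus rests on Ddx5 siRNA plus stress replicate 1, without which alone it was also 0.01. Of the single genes, Sqle (0.26) and Stard4 (0.47) were positive without that library and Msmo1 stood at 0.31, all short of the threshold.

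**Figure D4:**
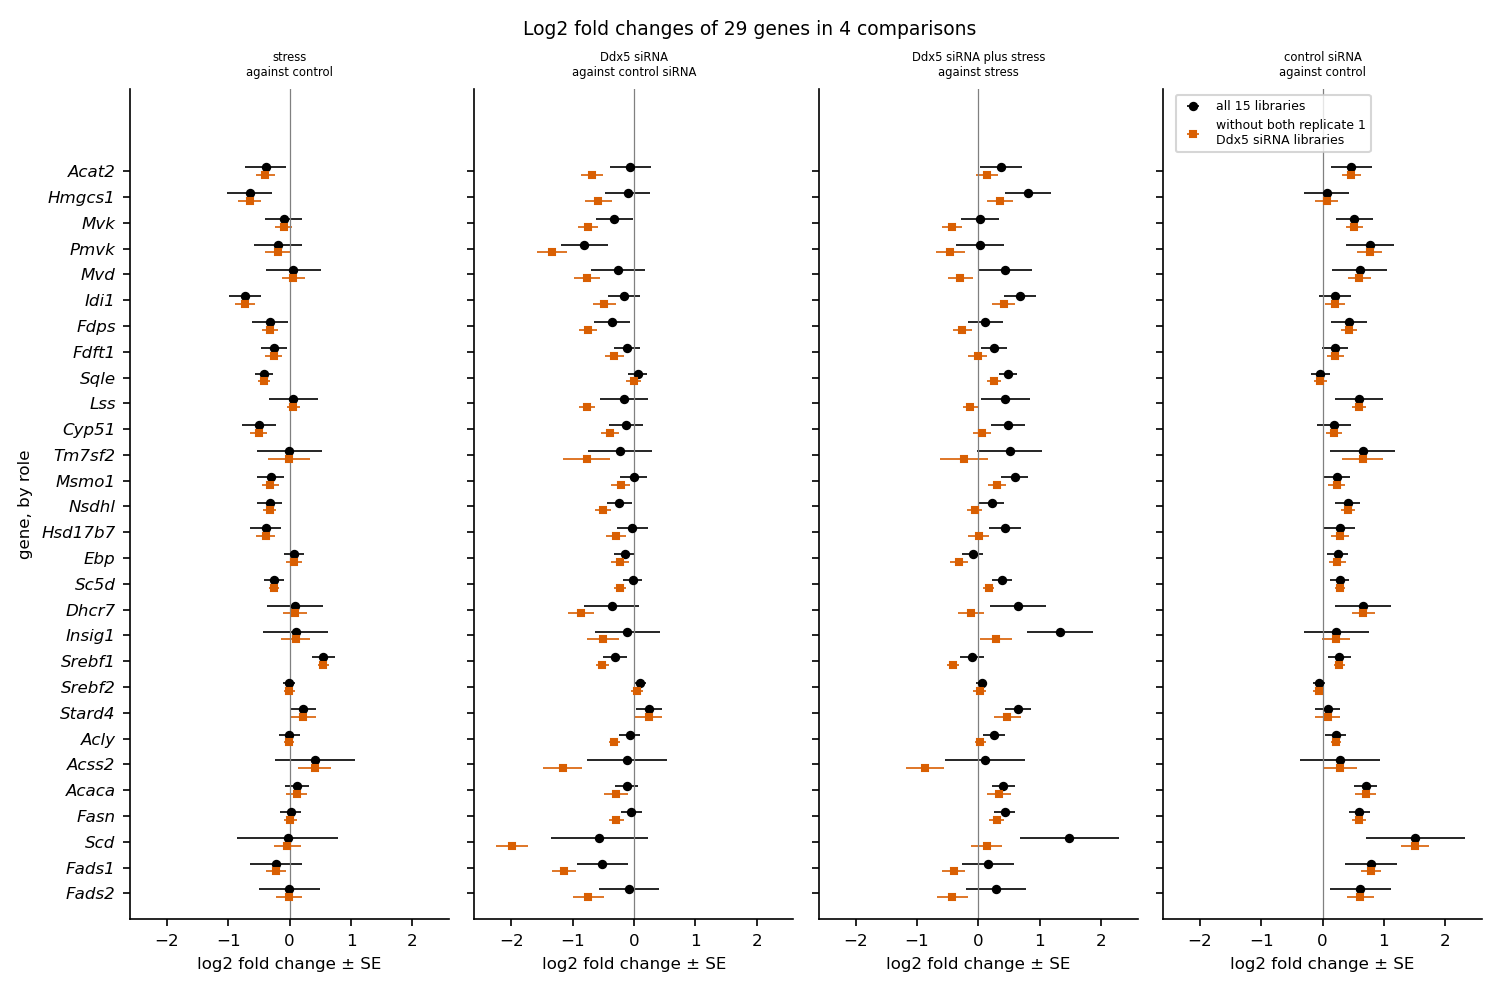
Log2 fold changes (points) with SE (bars) of 29 genes in 4 comparisons, from all 15 libraries (circles) and without both replicate 1 libraries that received the Ddx5 siRNA (squares). For the Ddx5 siRNA against the control siRNA the squares lie left of the circles (medians −0.51 and −0.12), for the Ddx5 siRNA plus stress against stress they scatter around 0 (medians 0.01 and 0.41), and in the other 2 comparisons they keep their positions with shorter bars.

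Stress was also examined within the cells that had the Ddx5 siRNA. None of the 29 genes passed (1.19% of all genes did), by edgeR or by DESeq2 (2.61% of all genes), and 3 passed at an unadjusted p under 0.05 (11.1% of all genes). The median log2 fold change was −0.06, with 14 positive and 15 negative values, and the groups overlapped for each of the 29 genes, against no overlap in 8.72% of all genes with higher and 6.53% with lower values. Stard4 had 14.1, 11.9 and 8.47 CPM in Ddx5 siRNA plus stress libraries, against 8, 8.57 and 7.125 CPM in Ddx5 siRNA libraries (0.54, SE 0.21, edgeR adjusted p = 0.303). Srebf1 had 85.5, 49.7 and 48.7 CPM in Ddx5 siRNA plus stress libraries, against 56.0, 40.6 and 35.4 CPM in Ddx5 siRNA libraries (0.48, SE 0.19, edgeR adjusted p = 0.348). Insig1 had 351, 100.4 and 67.8 CPM in Ddx5 siRNA plus stress libraries, against 103.7, 54.2 and 51.6 CPM in Ddx5 siRNA libraries (1.31, SE 0.54, edgeR adjusted p = 0.380). The groups overlapped in each of these genes, while the library of a given replicate number was higher with stress than without it in 3 of 3 pairs.

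By their correlations the replicate numbers were taken to pair these libraries as well, which no label states. Replicate 1 stands apart in both groups, and a deviation shared by these 2 libraries can by itself make all 3 correlations positive. The calls with the block therefore rest on pairs that are not established. With the number as a block in only these 6 libraries, 4 of the 29 genes passed, with 7.30% of all genes called (4.75% higher, 2.55% lower). Srebf1 (0.45, SE 0.09, edgeR adjusted p = 0.00942) and Scd (0.53, SE 0.12, edgeR adjusted p = 0.0195) rose, and Fdps (−0.27, SE 0.06, edgeR adjusted p = 0.0206) and Fads1 (−0.33, SE 0.09, edgeR adjusted p = 0.0475) fell. Without both replicate 1 libraries, 0 passed (1.03% of all genes). Over all 15 libraries the markers Sox9 (−0.94, SE 0.22, edgeR adjusted p = 0.0455) and Myh1 (−0.83, SE 0.16, edgeR adjusted p = 0.0143) fell here too, where 0.141% of all genes were called lower. Sox9 did not pass when Ddx5 siRNA plus stress replicate 1 or 2 or Ddx5 siRNA replicate 2 or 3 was dropped (up to 0.253), nor Myh1 when Ddx5 siRNA plus stress replicate 1 or Ddx5 siRNA replicate 2 or 3 was (up to 0.0719). Their part was not tested.

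The stress effect with the Ddx5 siRNA was then compared directly with the effect without it. The test of this difference called 0 of the 29 genes and 0% of all genes, by edgeR, DESeq2 called 0 of the 29 (0.0283% of all genes), and 1 of the 29 passed at an unadjusted p under 0.05 (3.12% of all genes). Sqle, the lowest, differed by 0.46 (SE 0.21, edgeR adjusted p = 0.999), Idi1 by 0.65 (SE 0.36, 95% interval −0.07 to 1.36) and Hmgcs1 by 0.85 (SE 0.52, 95% interval −0.17 to 1.87). In control and stress libraries Hmgcs1 was without overlap, at 74.5, 41.5 and 64.1 CPM with stress, against 117.5, 76.3 and 89.2 CPM in the control. With the Ddx5 siRNA it was at 163, 80.2 and 73.8 CPM with stress, against 144, 68.05 and 64.1 CPM without. The 20 positive and 9 negative differences had a median of 0.08, which lay between −0.25 and 0.51 when each of the 12 libraries was dropped in turn. A difference between both stress effects was not shown for any of these genes.

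The control siRNA was set against the control to see how these genes stood with the siRNA labelled as a control. This was the comparison in which the most genes stood apart between groups: 16 of 29 had every control siRNA library above every control library (16.0% of all genes), and 0 the reverse (15.4%). The median log2 fold change was 0.29, with 27 positive and 2 negative values, against −0.0032 over all genes. Even so, 0 genes passed in edgeR (3.87% of all genes did), 2 passed at an unadjusted p under 0.05 (20.5% of all genes), and DESeq2 called Acaca (adjusted p = 0.0122) and Fasn (0.02) higher, with 7.62% of all genes called (4.19% higher). Moving with the groups, Col1a1 stood at 56630 to 72887 CPM with the control siRNA and 29909 to 36700 CPM in the control, the summed chondrocyte markers at 309 to 332 CPM and 179.5 to 285 CPM, the summed leukocyte markers at 18.2 to 20.7 CPM and 26.1 to 35.3 CPM, and the summed muscle markers at 16.5 to 21.3 CPM and 22.8 to 25.1 CPM. Myh1 fell (−0.86, SE 0.16, edgeR adjusted p = 0.00828; 1.77% of all genes were called lower) and the neuronal tubulin gene Tubb3 rose (0.84, SE 0.17, edgeR adjusted p = 0.0145; 2.10% of all genes higher). Tubb3 did not pass when control replicate 1 or 2 or control siRNA replicate 3 was dropped (up to 0.0761). Of the 7 tested chondrocyte markers, 2 had positive and 5 negative log2 fold changes (median −0.319), although their sum, mostly Acan, was higher. The muscle sums are unscaled and the TMM factors differ (0.948 to 0.964 with the control siRNA, 1.04 to 1.06 in the control). No separation is therefore read from the muscle sums. The part of these markers was not tested.

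The 2 genes with the lowest p belong to fatty acid synthesis. Acaca had 45.3, 53.0 and 45.9 CPM in control siRNA libraries, against 21.3, 35.9 and 31.4 CPM in control libraries (log2 fold change 0.70, SE 0.19, edgeR adjusted p = 0.0526). Fasn had 284, 282.5 and 299 CPM in control siRNA libraries, against 152, 223 and 197 CPM in control libraries (0.60, SE 0.17, edgeR adjusted p = 0.0671). Neither gene's groups overlapped. Nsdhl, which encodes a sterol 4-carboxylate dehydrogenase, had 55.65, 55.25 and 57.4 CPM in control siRNA libraries, against 47.45, 38.2 and 40.8 CPM in control libraries (0.41, SE 0.21, edgeR adjusted p = 0.276). Scd showed the widest separation, with a log2 fold change of 1.51 (SE 0.81, edgeR adjusted p = 0.326) from the values given above, and Fads1, at 103.4 to 114 CPM with the control siRNA and 48.6 to 78.45 CPM in the control, differed by 0.79 (SE 0.42).

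Without both replicate 1 libraries with the Ddx5 siRNA, which belong to neither group, 12 of the 29 genes passed, all higher with the control siRNA, and 12.6% of all genes were called (6.50% higher). They were Acaca, Fasn, Scd and Fads1 of fatty acid synthesis, Mvk, Pmvk, Mvd and Fdps of the isoprenoid steps, and Lss, Nsdhl, Sc5d and Dhcr7 of the sterol steps. Their fold changes ran from 0.28 for Sc5d to 1.51 for Scd, and the SE for Scd was 0.22, against 0.81 with all 15 libraries. In a fit of only the 6 libraries compared, 12 also passed, all higher, with 10.4% of all genes called (5.31% higher); it called Acat2 and not Sc5d. Srebf1 (0.27, SE 0.19) and Srebf2 (−0.06, SE 0.10) were not called in any fit run for this comparison. Leaving out control replicate 2 in the fit of all 15 libraries moved Acaca past the threshold (edgeR adjusted p = 0.0376).

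Because the Ddx5 siRNA was compared with the control siRNA in cells without stress and with no siRNA under stress, both comparisons were also set against each other, a test added after the values were seen. The difference between the Ddx5 siRNA effect with stress and that without stress had a median log2 value of 0.48 over the 29 genes. It was positive for 28 and negative for 1, against a median of 0.010 and 51.4% positive over all genes. Of the 29, 0 passed in edgeR, as for all genes (0%), or in DESeq2 (0.820% of all genes). At an unadjusted p under 0.05, 1 passed (8.33% of all genes). The effect with stress was taken against cells without siRNA and the effect without stress against cells with the control siRNA, so the control siRNA's own difference from the control enters this value and cannot be told apart from stress. Without both replicate 1 libraries Scd passed (2.12, SE 0.36, edgeR adjusted p = 0.0118), with 0.990% of all genes called (0.481% higher).

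Genes of neighbouring pathways were counted from 5 further lists. Under stress, 2 of 22 tested genes of fatty acid oxidation rose and 0 fell, where 1.06% of all genes were called higher and 0.346% lower. Cpt1a, the carnitine palmitoyltransferase gene that admits fatty acids to mitochondria, had 79.0, 97.0 and 112 CPM in stress libraries, against 27.4, 26.6 and 40.6 CPM in control libraries. The groups did not overlap and the log2 fold change was 1.61 (SE 0.20, edgeR adjusted p = 0.00067), and Cpt1a passed whichever 1 of these 6 libraries was dropped. Under stress it also rose in cells that had the Ddx5 siRNA. It stood at 44.45, 68.7 and 66.6 CPM in Ddx5 siRNA plus stress libraries, against 18.0, 15.6 and 19.75 CPM in Ddx5 siRNA libraries. The log2 fold change was 1.75 (SE 0.20, edgeR adjusted p = 0.00044), where 1.05% of all genes were called higher. Cpt1a again passed whichever library was dropped.

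Hadha, a subunit gene of the mitochondrial trifunctional protein, also rose under stress (0.43, SE 0.09, edgeR adjusted p = 0.0324). So did Dgat1, which encodes a triglyceride-forming acyltransferase, in the list of other fatty acid genes (1 of 25; 0.44, SE 0.10, edgeR adjusted p = 0.0384), and Cyp7b1, an oxysterol hydroxylase gene, in the list of sterol efflux and transport (1 of 17; 2.03, SE 0.44, edgeR adjusted p = 0.0416). Dropping single libraries ended these 3 calls. Hadha did not pass when stress replicate 1 or 3 or any control library was dropped (edgeR adjusted p up to 0.116), Dgat1 when replicate 1 or 2 of either group was (up to 0.151), and Cyp7b1 when stress replicate 1 or 2 or any control library was (up to 0.162). None of 13 genes of SREBP processing and sterol sensing and none of 14 further sterol and isoprenoid genes passed in any comparison.

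Hadhb, which encodes the other subunit of the trifunctional protein, was the only gene of these 5 lists to pass for the Ddx5 siRNA against the control siRNA, where 0.163% of all genes were called lower. It had 165, 180 and 166 CPM in Ddx5 siRNA libraries, against 249, 239 and 247 CPM in control siRNA libraries (−0.52, SE 0.08, edgeR adjusted p = 0.0176). It did not pass when Ddx5 siRNA replicate 2 (0.0811) or 3 (0.128) or control siRNA replicate 1 (0.112), 2 (0.121) or 3 (0.0722) was dropped, all edgeR adjusted p. The control libraries held 162, 158 and 139 CPM of Hadhb, so the control siRNA was the group that stood apart. It was higher than the control by 0.68 (SE 0.08, edgeR adjusted p = 0.000904), and passed whichever 1 of the 6 libraries was dropped.

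Of the remaining genes in these lists, Vldlr, a lipoprotein receptor gene, rose with the control siRNA against the control (1 of 17, with 2.10% of all genes higher; 1.33, SE 0.33, edgeR adjusted p = 0.0454), as did Mid1ip1, which encodes an activator of acetyl-CoA carboxylase (0.46, SE 0.11, edgeR adjusted p = 0.0351), and Elovl1, an elongase gene (0.31, SE 0.08, edgeR adjusted p = 0.0387), both among 25. Vldlr (edgeR adjusted p 0.0833 to 0.156) and Elovl1 (0.0736 to 0.164) did not pass whichever 1 of the 6 libraries was dropped, nor did Mid1ip1 when control replicate 2 or 3 or a control siRNA library was (up to 0.142). None of these 5 lists had a gene that passed for the Ddx5 siRNA plus stress against stress, where the median of the 29 genes was 0.41.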

How the data were processed

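The authors deposited raw read counts per gene, 1 column per library with replicates not pooled, and FPKM. Per the file headers the table pairs identifiers with names and lengths; the sources used here give no aligner, counter, strand setting or build, so reads of pseudogenes or antisense neighbours may be included. The deposited FPKM equal count over length over 1 number per library (largest relative deviation 5.1e-15) and served for levels between genes. Genes were filtered by filterByExpr by group and scaled by TMM. edgeR 4.0.16 (R 4.3.3) fitted 1 mean per group over 15 libraries with the robust quasi-likelihood F test and Benjamini-Hochberg adjustment over 14147 genes. SE is the fold change over the square root of F, and the common biological coefficient of variation was 0.217 (0.174 without both replicate 1 Ddx5 siRNA libraries). For 3 libraries against 3 an exact permutation test gives no p below 0.10.

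The 30 genes, 5 pathway lists and 6 marker lists were chosen with earlier results of these data known. Values in every library were given for the 3 genes with the lowest p per comparison, and for Scd, Insig1, Acss2, Dhcr7, Lss, Fads2 and Srebf2, picked after their values were seen. From each other list, markers included, called genes are named, at most 4 per comparison. Replicate numbers were taken as pairs where all 3 correlations of same-numbered deviations from group means exceeded 0.1: stress against control (0.347 to 0.467) and Ddx5 siRNA plus stress against Ddx5 siRNA (0.313 to 0.647), a pattern in the data that no label states. All replicates differed by more than sampling noise. Alternatives were RLE scaling, no filter, DESeq2 1.42.0, fits of only the groups compared, the replicate block, leaving out each library, another control and, added after the values were seen, leaving out both replicate 1 Ddx5 siRNA libraries and repeating all of these for the called markers. The test was checked on simulated counts.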

Additional observations from a re-analysis of the deposited data

How the results depend on the processing

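RLE scaling changed no comparison's count of the 29 genes called. For stress against control, 1 gene (Idi1, 2.59% of all genes) passed with the replicate block in all 15 libraries, 1 (Srebf1, edgeR adjusted p = 0.0296, 1.5% of all genes) with only the groups compared, 8 with only those groups and the replicate block, and 4 without both replicate 1 libraries that received the Ddx5 siRNA; leaving out 1 library gave 0, with medians of −0.283 to 0.006. For the Ddx5 siRNA against the control siRNA, 1 gene (Pmvk, edgeR adjusted p = 0.0352, 2.95% of all genes) passed with the replicate block in all 15 libraries and 13 without both libraries (median −0.509); leaving out 1 gave 0 and medians of −0.509 to 0.035. For the Ddx5 siRNA plus stress against stress, leaving out 1 library gave medians of 0.00995 to 0.516, and leaving out both 0.0101. For the Ddx5 siRNA plus stress against the Ddx5 siRNA, 4 passed with only those groups and the replicate block. The difference between both stress effects had medians of −0.254 to 0.509 with 1 library left out. For the control siRNA against the control, 1 gene (Acaca, 2.25% of all genes) passed without a filter on low counts, 2 (Acaca and Pmvk, 8.29%) with the replicate block in all 15 libraries (median 0.407), 12 with only the groups compared, 12 with these groups and the replicate block (11.8%), 2 with DESeq2, 12 without both libraries, and 0 to 1 with 1 library left out (medians 0.258 to 0.455). Against the control without siRNA, in the fit of all 15 libraries, Fdps (0.0684) and Hadhb (0.156) reversed with the Ddx5 siRNA. The cause was not tested.

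In the comparisons with the control siRNA and in the Ddx5 siRNA plus stress against stress, not all correlations exceeded 0.1 (−0.247 to 0.0278, 0.0862 to 0.129 and 0.0537 to 0.347). The numbers were therefore not taken as pairs there. The block changed no other count of the 29 genes called. All genes called ranged from 81 to 1683 over the alternatives for stress against control (199), 0 to 1916 for the Ddx5 siRNA (56), 0 to 160 for the Ddx5 siRNA plus stress against stress (4), 23 to 985 for the Ddx5 siRNA plus stress against the Ddx5 siRNA (169) and 166 to 1804 for the control siRNA (547). With 3 libraries a group and 2 apart, moderate differences could be missed.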

Other observations

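Srebf1 and Srebf2, which encode the SREBP factors, differed in how they followed the libraries. Srebf1 had its highest level of all 15 libraries in Ddx5 siRNA plus stress replicate 1 (85.5 CPM), where 13 other genes also peaked, and its lowest in Ddx5 siRNA replicate 3 (35.4 CPM). Srebf2 stayed between 115 and 147 CPM, and both of its extremes were control libraries. The lowest library of 12 of the 29 genes was stress replicate 2.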
